A study of Mus musculus with 6 samples.

Results

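The genes described here are 39 mouse genes of the unfolded protein response and of the heat shock and chaperone systems, taken by symbol from 46517 Ensembl gene identifiers in the series. They fall into 5 classes by where the protein works: 4 genes for the stress sensors of the endoplasmic reticulum (ER) and the factor XBP1, 12 for ER chaperones, folding enzymes and secreted products of the response, 7 for ER-associated degradation, 13 for cytosolic chaperones, co-chaperones and HSF1, and 3 for mitochondrial chaperones. The series asked how medium conditioned by basophils, a rare kind of granulocyte with receptors for the cytokine IL-3, alters the transcriptome of activated CD8 T cells. In the IL-3 supernatant group (3 libraries), the T cells received medium in which sorted basophils had spent 2 days with IL-2 and 3 ng/mL IL-3. In the PBS supernatant group (3 libraries), the basophils had been given IL-2 and PBS. T cells of both groups were naive cells from spleen and lymph nodes of C57BL/6J mice, grown for 3 days on plates coated with antibody to CD3 at 5 ug/mL, with antibody to CD28 at 0.5 ug/mL and IL-2 at 100 units/mL, and exposed to the supernatant between day 1 and day 2. No allele or transgene is named for either group, and the sources used here give neither age nor sex of the mice. The supernatants carry whatever was added to the basophils, so IL-3 itself and products of basophils cannot be told apart. Whether replicates were separate mice or cultures is not stated in the labels, and the p-values therefore weigh only the spread from library to library, which can be technical.

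The ER folds secreted and membrane proteins with its own set of chaperones. When unfolded protein builds up there, the membrane sensors IRE1 (Ern1), PERK (Eif2ak3) and ATF6 (Atf6) signal to the nucleus: IRE1 splices the mRNA of XBP1, PERK slows translation and favours that of ATF4, and ATF6 is cut to release a transcription factor, and together these raise ER chaperones and the machinery that returns misfolded protein to the cytosol for degradation. In the cytosol, HSF1 raises HSP70, HSP90 and their helpers when proteins unfold there, and a separate response covers the mitochondrial matrix. Activated T cells and effector CD8 T cells are known to engage these systems as they grow, divide and secrete cytokines.

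Polyadenylated RNA gave between 17377052 and 22174902 expected counts per library. IL-3 and PBS libraries separated along the first principal component of log2 counts, which held 63.0% of the variance, and PBS supernatant replicate 2 stood apart from the others on the second, which held 14.7%. Cd8a, a subunit of the CD8 coreceptor, averaged 377 ± 15.5 CPM in IL-3 libraries and 850 ± 41.1 CPM in PBS libraries (SD, n = 3 each), where CPM are counts scaled to the TMM-adjusted size of each library, and Cd4 stayed at 0.831 CPM or less in every library. The 7 genes of a CD8 T cell list were all lower with IL-3 supernatant, summing to 1338 to 1456 CPM against 2163 to 2309 CPM with PBS supernatant. Of the basophil markers, Mcpt8, Fcer1a, Ms4a2 and Prss34 were at 0 in all 6 libraries, and all 7 summed to 0 to 0.0901 CPM with IL-3 supernatant and 0 to 0.0556 CPM with PBS supernatant. The 6 myeloid markers summed to 1.35 to 2.66 CPM with IL-3 and 1.55 to 2.68 CPM with PBS, and S100a8 was at 0 in all 6 libraries. The 4 NK cell markers summed to 11.4 to 12.7 CPM with IL-3 and 38.6 to 44.9 CPM with PBS, nearly all of it Eomes, a factor that CD8 T cells also express (11.5 ± 0.788 CPM with IL-3 and 41.6 ± 3.35 CPM with PBS), while Klre1 averaged 0.499 CPM with IL-3 and 0.579 CPM with PBS, and Ncr1 and Klrb1c had 1 count each over all libraries. The 3 CD4 T cell markers summed to 17.9 to 19.8 CPM with IL-3 and 6.44 to 9.29 CPM with PBS, most of it Zbtb7b (18.0 ± 1.295 CPM with IL-3 and 6.36 ± 1.73 CPM with PBS), while Cd40lg averaged 0.385 CPM with IL-3 and 0.913 CPM with PBS and did not pass, and Cd4 was at most 0.831 CPM in any library. Of the B and plasma cell markers, Ighm averaged 117 ± 10.8 CPM with IL-3 and 307 ± 16.2 CPM with PBS, Sdc1 averaged 15.85 ± 1.44 CPM with IL-3 and 6.88 ± 1.11 CPM with PBS, and Cd79a stayed at 0.306 CPM or less. In bulk RNA, fewer cells of a type and less RNA per cell cannot be told apart, and the part of these differences in the results below was not tested.

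With IL-3 basophil supernatant, more of these genes rose than fell, among the ER genes (8 higher, 3 lower of 22 tested) and among the cytosolic and mitochondrial genes (9 higher, 1 lower of 15 tested), and most changes were small. The inducible HSP70 genes Hspa1a and Hspa1b and the HSP70 partner Bag3 rose most among the 39, the mitochondrial HSP70 Hspa9 rose, and the transcription factor Xbp1 and the BiP partner Dnajc3 fell. Counts were compared with edgeR's quasi-likelihood test, and a gene was called when its adjusted p (Benjamini-Hochberg over all 12407 genes tested) was below 0.05. Of the 37 members that passed the filter on low counts, 17 were higher with IL-3 supernatant, 4 were lower and 16 were not called. The 21 called members are 56.8% of those tested, beside 30.9% of all genes tested (14.8% higher and 16.1% lower). The median log2 fold change, IL-3 over PBS, was 0.15 for the 37 members and -0.005 for all genes tested. Regardless of sign, the median size of the log2 fold change was smaller for the members (0.163) than for all genes tested (0.197). In 27 members the 3 IL-3 libraries did not overlap the 3 PBS libraries in CPM, beside 43.6% of all genes tested. Of the called members 2, Hspa1a and Hspa1b, changed at least 2-fold, beside 7.79% of all genes tested. Leaving out PBS supernatant replicate 3 lowered the count to 13 members (11 higher, 2 lower), and the number lower was 2 also without IL-3 supernatant replicate 2, IL-3 supernatant replicate 3 or PBS supernatant replicate 2. The replicates of these genes lay close together, with a median coefficient of variation of 5.27% in IL-3 libraries and 4.55% in PBS libraries, against 7.48% and 8.24% over all genes tested.

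**Figure D1:**
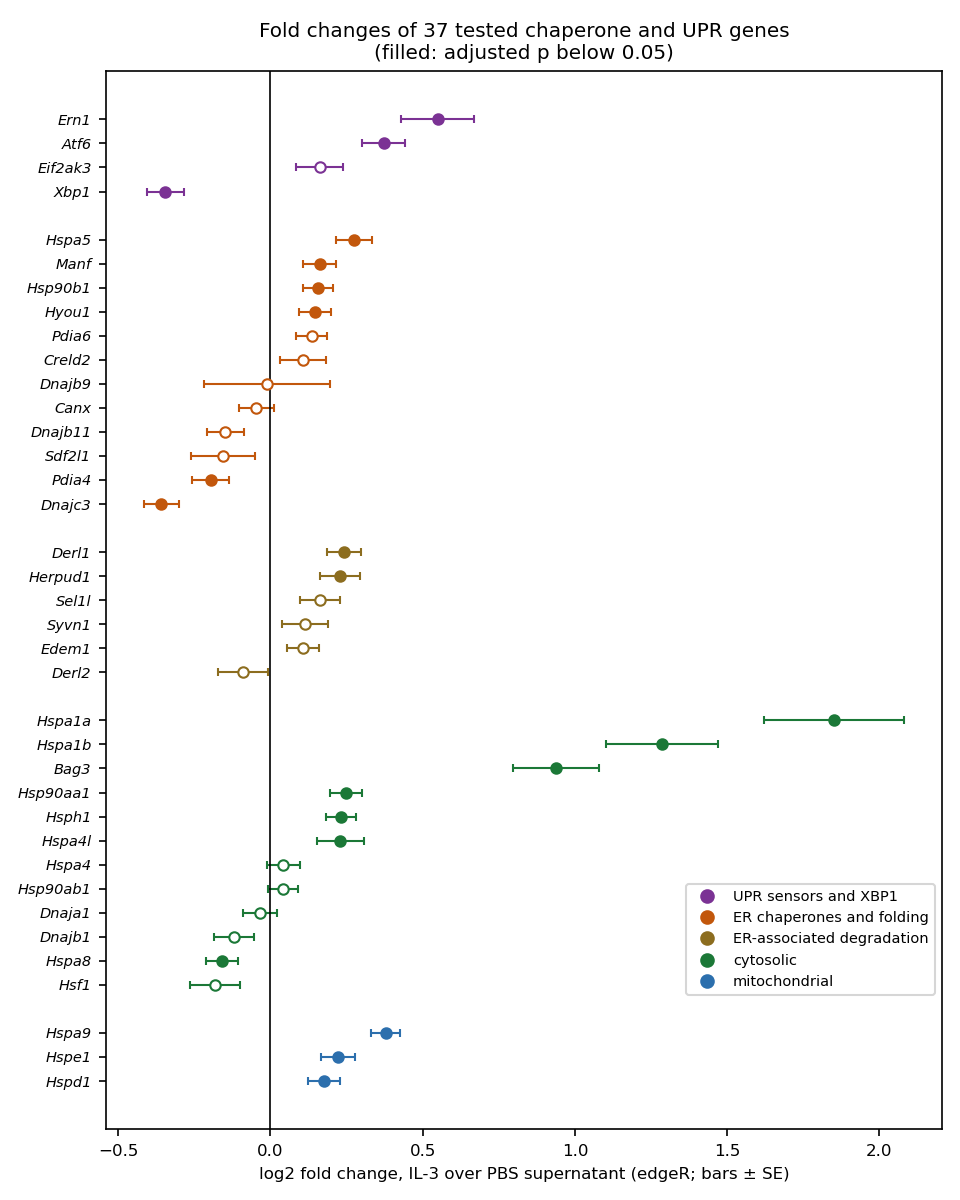
Log2 fold change, IL-3 over PBS supernatant, of the 37 tested members by class, with bars of ± 1 SE from edgeR, filled where the adjusted p is below 0.05. Hspa1a, Hspa1b and Bag3 lie far to the right at 1.85, 1.28 and 0.94, and most other members lie between -0.36 and 0.38.

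The sensors and XBP1 split. Ern1 encodes IRE1, the membrane kinase and nuclease that splices Xbp1 mRNA (ENSMUSG00000020715, chr11:106394650-106487852 of GRCm38, minus strand). It measured 15.3, 13.7 and 13.9 CPM in IL-3 supernatant replicates 1, 2 and 3, against 9.07, 10.2 and 10.1 CPM in PBS supernatant replicates 1, 2 and 3. All IL-3 libraries lay above all PBS libraries, and Ern1 rose by 0.55 ± 0.12 on the log2 scale (± SE, edgeR adjusted p = 0.0022). The call was lost in the 3 limma fits on length-scaled TPM of 5 libraries (limma adjusted p = 0.0519 to 0.0765). Atf6, the sensor that is itself a transcription factor once cut, measured 72.6, 79.1 and 78.2 CPM with IL-3 supernatant, against 63.8, 59.5 and 54.3 CPM with PBS supernatant. The groups did not overlap, and Atf6 rose by 0.37 ± 0.07 on the log2 scale (edgeR adjusted p = 6.8e-04). Eif2ak3, the PERK kinase, measured 39.2, 39.5 and 41.2 CPM with IL-3 supernatant, against 33.9, 37.3 and 35.9 CPM with PBS supernatant. These ranges did not overlap either, yet the difference of 0.16 ± 0.08 did not pass (edgeR adjusted p = 0.13).

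Xbp1, the transcription factor downstream of IRE1, went the other way (ENSMUSG00000020484, chr11:5520659-5525893, plus strand). It measured 138, 125 and 126 CPM in IL-3 libraries, against 155, 169 and 170 CPM in PBS libraries. Each IL-3 library lay below each PBS library, and the log2 fold change was -0.34 ± 0.06 (edgeR adjusted p = 3.3e-04). On the length-scaled TPM of the authors, Xbp1 was the most abundant of the 4, at 127 ± 7.21 TPM with IL-3 supernatant and 157 ± 8.11 TPM with PBS supernatant (SD, n = 3 each; TPM of PBS supernatant replicate 2 are isoforms summed per gene). In the IL-3 libraries the sensors stood far below Xbp1, at 5.31 ± 0.478 TPM for Ern1, 20.9 ± 1.05 TPM for Atf6 and 18.1 ± 1.197 TPM for Eif2ak3. In the PBS libraries they stood at 3.51 ± 0.328 TPM for Ern1, 15.7 ± 1.48 TPM for Atf6 and 16.2 ± 0.601 TPM for Eif2ak3. The sum over the 4 genes was therefore lower with IL-3 supernatant (171 ± 5.67 TPM, against 193 ± 7.30 TPM with PBS supernatant), although 3 of the 4 genes had positive fold changes. Counts per gene do not separate spliced from unspliced Xbp1 mRNA, so they do not measure IRE1 activity.

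**Figure D2:**
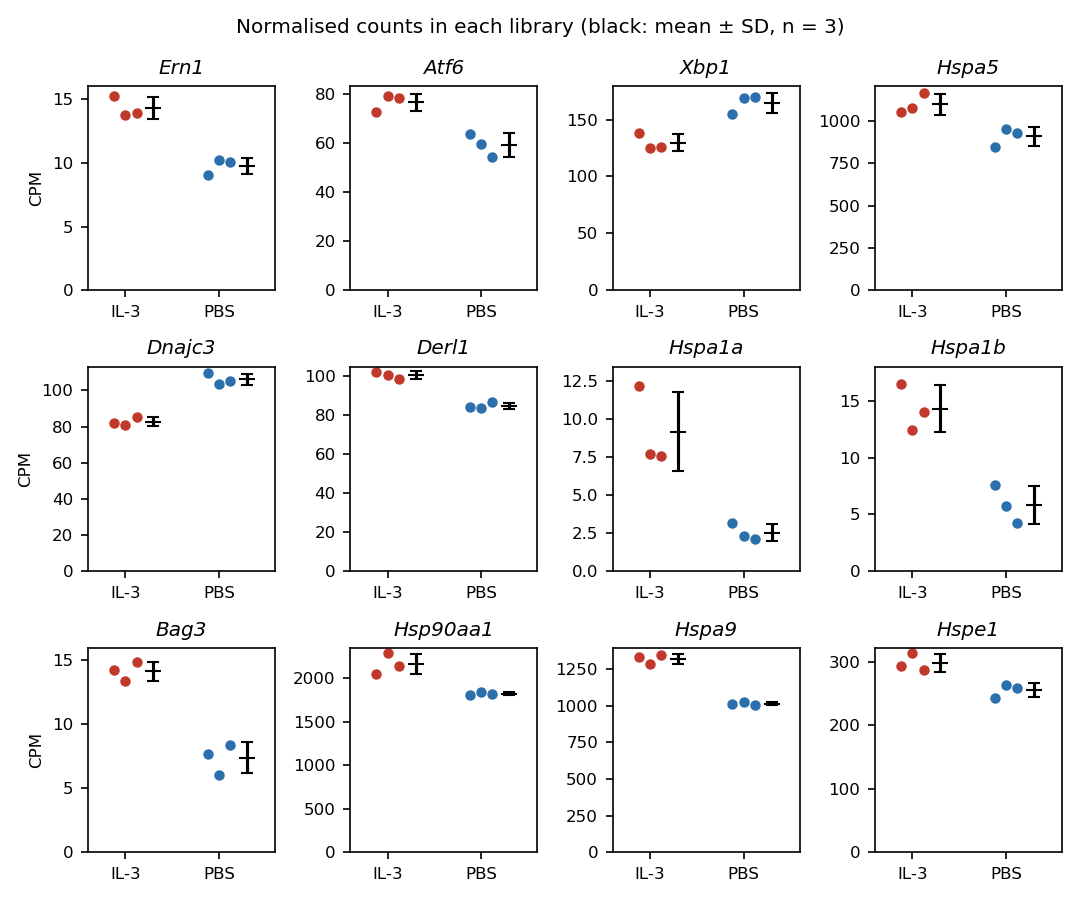
CPM of 12 members in each of the 3 IL-3 and 3 PBS libraries (points, with mean ± SD in black, n = 3), each panel with its own axis from 0. Xbp1 and Dnajc3 are lower in every IL-3 library than in every PBS library, and the other 10 genes are higher.

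Among the 12 genes for ER chaperones and folding, 4 rose, 2 fell and 6 were not called (50% called, beside 30.9% of all genes tested). Their median log2 fold change was 0.05. Hspa5 encodes BiP, the HSP70 of the ER lumen and its main chaperone, which also holds the stress sensors inactive. Hsp90b1 encodes GRP94, the HSP90 of the ER, and Dnajc3 encodes p58IPK, a J-domain partner of BiP first known as an inhibitor of the kinases PKR and PERK. Their promoters are shown because all 3 hold the ER stress response element (ERSE), to which ATF6 and XBP1 bind together with NF-Y. Hspa5 and Hsp90b1 rose and Dnajc3 fell, and the part of the element in these changes was not tested. Each line gives the 250 bases before the start site of the RefSeq gene (GRCm38.p6), 5' to 3' on the strand of the gene, from chr2:34771840-34772089 (plus) for Hspa5, chr10:86705445-86705694 (minus) for Hsp90b1 and chr14:118937682-118937931 (plus) for Dnajc3. Capitals mark the matches to the ERSE on either strand, CCAAT and CCACG with 9 bases of any kind between them, of which Hsp90b1 has 2.
Hspa5: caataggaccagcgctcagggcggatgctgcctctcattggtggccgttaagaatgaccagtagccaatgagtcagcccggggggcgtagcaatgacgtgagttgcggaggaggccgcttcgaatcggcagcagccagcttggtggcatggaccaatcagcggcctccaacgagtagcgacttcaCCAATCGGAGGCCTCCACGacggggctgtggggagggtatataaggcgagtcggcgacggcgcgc
Hsp90b1: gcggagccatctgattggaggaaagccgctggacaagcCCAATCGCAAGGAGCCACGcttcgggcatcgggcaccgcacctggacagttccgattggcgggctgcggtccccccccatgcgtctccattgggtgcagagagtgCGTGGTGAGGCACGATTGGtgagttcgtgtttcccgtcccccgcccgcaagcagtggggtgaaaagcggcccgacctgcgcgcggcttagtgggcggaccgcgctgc
Dnajc3: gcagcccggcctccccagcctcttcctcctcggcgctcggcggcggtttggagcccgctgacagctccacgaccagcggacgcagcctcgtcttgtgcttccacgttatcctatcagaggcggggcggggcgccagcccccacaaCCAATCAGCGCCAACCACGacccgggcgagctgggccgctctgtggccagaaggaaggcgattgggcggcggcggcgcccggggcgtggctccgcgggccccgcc

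Hspa5 (ENSMUSG00000026864) measured 1049, 1078 and 1166 CPM in IL-3 libraries, against 843, 952 and 928.5 CPM in PBS libraries. The lowest IL-3 library lay above the highest PBS library, and Hspa5 rose by 0.27 ± 0.06 (log2 ± SE, edgeR adjusted p = 0.0016). Its call was lost in the 3 limma fits on TPM of 5 libraries (limma adjusted p = 0.0522 to 0.179). Hsp90b1 measured 1068, 1131 and 1147 CPM with IL-3 supernatant, against 992.5, 998 and 1013 CPM with PBS supernatant. It rose by 0.16 ± 0.05 (edgeR adjusted p = 0.022), with no overlap. The call ended without IL-3 supernatant replicate 3 (adjusted p = 0.115), without PBS supernatant replicate 2 (0.0551) and without PBS supernatant replicate 3 (0.0621). Dnajc3 (ENSMUSG00000022136) measured 82.1, 80.8 and 85.4 CPM in IL-3 libraries, against 109, 104 and 105 CPM in PBS libraries. All IL-3 libraries lay below all PBS libraries, and Dnajc3 fell by 0.36 on the log2 scale (SE 0.06; edgeR adjusted p = 1.2e-04).

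The other called ER folding genes lay near the threshold. Hyou1, the nucleotide exchange factor of BiP, averaged 365 ± 8.96 CPM with IL-3 supernatant and 330.1 ± 17.3 CPM with PBS supernatant, a log2 fold change of 0.15 ± 0.05 (edgeR adjusted p = 0.047). That call was lost without IL-3 supernatant replicate 1 (adjusted p = 0.129), IL-3 supernatant replicate 3 (0.156), PBS supernatant replicate 1 (0.111) or PBS supernatant replicate 3 (0.102). Manf, a small secreted protein that is released under ER stress, averaged 206 ± 7.41 CPM with IL-3 supernatant and 184 ± 8.38 CPM with PBS supernatant (0.16 ± 0.06, edgeR adjusted p = 0.034). Its call was lost without IL-3 supernatant replicate 2 (adjusted p = 0.0834), IL-3 supernatant replicate 3 (0.0868) or PBS supernatant replicate 3 (0.145). Pdia4, a protein disulfide isomerase, averaged 159 ± 10.5 CPM with IL-3 supernatant and 182 ± 9.51 CPM with PBS supernatant (-0.20 ± 0.06, edgeR adjusted p = 0.022). Without IL-3 supernatant replicate 2 its adjusted p was 0.132, without IL-3 supernatant replicate 3 it was 0.0821, without PBS supernatant replicate 2 it was 0.154 and without PBS supernatant replicate 3 it was 0.0629. Pdia6, another disulfide isomerase, averaged 304 ± 9.12 CPM with IL-3 supernatant and 277 ± 4.76 CPM with PBS supernatant. It sat at the threshold with 0.14 ± 0.05 (edgeR adjusted p = 0.0504). Pdia6 passed in 7 of the 19 alternatives, among them edgeR without IL-3 supernatant replicate 2 (0.0479) and DESeq2 (0.028).

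The 5 remaining ER folding genes were not called. Canx, the membrane lectin calnexin that holds new glycoproteins, averaged 773 ± 56.3 CPM with IL-3 supernatant and 798 ± 28.8 CPM with PBS supernatant, a log2 fold change of -0.05. Dnajb11, a soluble J-domain partner of BiP, averaged 154 ± 10.4 CPM with IL-3 supernatant and 171 ± 5.49 CPM with PBS supernatant (-0.15 ± 0.06, edgeR adjusted p = 0.071), and passed without PBS supernatant replicate 1 (0.0442). Sdf2l1, which works in a complex with Dnajb11, averaged 64.5 ± 8.62 CPM with IL-3 supernatant and 71.95 ± 8.44 CPM with PBS supernatant (-0.16 ± 0.11). Creld2, a secreted ER stress product, averaged 57.1 ± 1.95 CPM with IL-3 supernatant and 53.0 ± 4.12 CPM with PBS supernatant (0.11 ± 0.07). The IL-3 and PBS libraries of Canx, Sdf2l1 and Creld2 overlapped, and those of Dnajb11 did not. Dnajb9, the J-domain protein that recruits BiP to IRE1 and a classic target of XBP1, measured 5.20, 6.93 and 6.59 CPM in IL-3 libraries, against 7.29, 7.26 and 4.33 CPM in PBS libraries. The groups overlapped fully, at a log2 fold change of -0.01 ± 0.21 (edgeR adjusted p = 0.98), which also changed sign with the processing.

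Of the 7 genes for ER-associated degradation, 6 were tested, of which 2 rose and 4 were not called (33.3% called, beside 30.9% of all genes tested), with a median log2 fold change of 0.14. Derl1, a membrane protein of the channel through which misfolded proteins leave the ER, measured 102, 101 and 98.4 CPM with IL-3 supernatant, against 84.5, 83.6 and 86.6 CPM with PBS supernatant. Replicates differed by little and the groups stood well apart, at 0.24 ± 0.06 on the log2 scale (edgeR adjusted p = 0.0030). Herpud1, a scaffold of the HRD1 ubiquitin ligase, measured 102, 87.4 and 99.2 CPM with IL-3 supernatant, against 79.9, 85.4 and 80.7 CPM with PBS supernatant. It rose by 0.23 ± 0.07 (edgeR adjusted p = 0.015), with IL-3 supernatant replicate 2 only just above the highest PBS library. Its adjusted p was 0.0888 without IL-3 supernatant replicate 1, 0.0739 without IL-3 supernatant replicate 3 and 0.0585 without PBS supernatant replicate 3. The Herpud1 promoter is shown because it holds the short form of the ER stress element, ATTGG and CCACG with 1 base between them, and on the other strand a match to TGATGNAA, the element read by ATF4 and C/EBP factors, both in capitals. These are the 250 bases before the RefSeq start site, chr8:94386179-94386428 of GRCm38.p6, plus strand.
Herpud1: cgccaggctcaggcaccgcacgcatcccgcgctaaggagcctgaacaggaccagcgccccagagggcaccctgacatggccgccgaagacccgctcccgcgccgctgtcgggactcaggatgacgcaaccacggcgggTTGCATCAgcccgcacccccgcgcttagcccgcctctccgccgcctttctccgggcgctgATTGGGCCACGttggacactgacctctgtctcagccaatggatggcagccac

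Sel1l, the adaptor of HRD1, averaged 125 ± 9.93 CPM with IL-3 supernatant and 112 ± 4.29 CPM with PBS supernatant (0.16 ± 0.06, edgeR adjusted p = 0.069), and passed without IL-3 supernatant replicate 3 (0.0324) or PBS supernatant replicate 1 (0.0326). Syvn1, which encodes HRD1 itself, averaged 51.7 ± 3.47 CPM with IL-3 supernatant and 47.8 ± 2.33 CPM with PBS supernatant (0.11 ± 0.08). Edem1, which hands misfolded glycoproteins to degradation, averaged 244 ± 10.8 CPM with IL-3 supernatant and 226 ± 3.30 CPM with PBS supernatant (0.11 ± 0.05, edgeR adjusted p = 0.14), and passed without IL-3 supernatant replicate 2 (0.0441). Sel1l, Syvn1 and Edem1 all had positive fold changes, and none of the 3 passed with all 6 libraries. Derl2, a relative of Derl1, averaged 45.9 ± 2.59 CPM with IL-3 supernatant and 48.9 ± 3.935 CPM with PBS supernatant (-0.09 ± 0.08). Derl3, the third derlin and typical of secretory cells, fell below the filter of the main fit: its counts were 0, 1 and 0 in IL-3 supernatant replicates 1, 2 and 3, against 8, 6 and 23 in PBS supernatant replicates 1, 2 and 3. The edgeR fit with no filter tested all 39 members and called 5 lower, against 4 in the main fit, and Derl3 was the added one. Scaled by library size, the ratio of the summed counts was 0.024 (95% exact binomial interval 0.000592 to 0.142, counting error only).

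Of the 13 cytosolic genes, 12 were tested, of which 6 rose, 1 fell and 5 were not called (58.3% called, beside 30.9% of all genes tested). Their median log2 fold change was 0.14. The stress-inducible HSP70 genes Hspa1a (ENSMUSG00000091971, chr17:34969190-34972156, minus strand) and Hspa1b (ENSMUSG00000090877, chr17:34956436-34959238, minus strand) moved most. Hspa1a measured 12.2, 7.75 and 7.61 CPM in IL-3 libraries, against 3.17, 2.33 and 2.11 CPM in PBS libraries, from 237, 172 and 149 counts in IL-3 libraries and 57, 42 and 37 counts in PBS libraries. Its lowest IL-3 library was above the highest PBS library, and it rose 3.61-fold (log2 1.85 ± 0.23, edgeR adjusted p = 1.1e-05). Hspa1b measured 16.5, 12.4 and 14.0 CPM with IL-3 supernatant, against 7.57, 5.71 and 4.28 CPM with PBS supernatant. It rose 2.44-fold (log2 1.28 ± 0.18, edgeR adjusted p = 7.0e-05), again with no overlap. Their transcripts share long stretches: 60.3% of the 50-base stretches of Hspa1a transcripts also occur in other genes, mostly in Hspa1b, so the division of reads between them is uncertain. Summed to 1 feature, the pair rose by 1.48 on the log2 scale (edgeR adjusted p = 2.2e-04). Another relative, Hspa1l, held 21.5% of the counts of Hspa1a and Hspa1l combined and 13.8% of those of Hspa1b and Hspa1l combined. With the counts of Hspa1l added to each of the pair, an alternative chosen after seeing the data, Hspa1a rose by 1.28 (edgeR adjusted p = 1.2e-04) and Hspa1b by 1.03 (edgeR adjusted p = 4.5e-05) on the log2 scale.

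The upstream regions of both genes are nearly the same too, with 247 of 250 bases identical. That of Hspa1a, chr17:34972157-34972406 (minus strand, GRCm38.p6), is shown because it holds a pair of inverted units of the heat shock element, GAANNTTC, here in capitals (HSF1 trimers bind such units in series). The full element searched, which adds another GAA after 2 bases, was not matched in this window.
Hspa1a: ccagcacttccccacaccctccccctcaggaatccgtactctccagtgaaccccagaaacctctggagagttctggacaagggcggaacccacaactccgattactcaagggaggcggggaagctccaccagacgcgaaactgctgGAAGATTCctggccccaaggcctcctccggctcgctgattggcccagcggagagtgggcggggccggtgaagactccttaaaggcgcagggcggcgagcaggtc

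Bag3 encodes the nucleotide exchange factor that ties HSP70 to selective autophagy (ENSMUSG00000030847, chr7:128523616-128546981, plus strand). It measured 14.2, 13.3 and 14.8 CPM in IL-3 libraries, against 7.68, 6.04 and 8.38 CPM in PBS libraries. The groups stood apart, and Bag3 rose 1.92-fold (log2 0.94 ± 0.14, edgeR adjusted p = 6.6e-05). These 3 genes and Ern1 were the called members with the largest fold changes and also those with the lowest levels, each under 20 CPM with PBS supernatant. Among the 32 tested members with at least 20 CPM there, 13 rose, 4 fell and 15 were not called (53.1% called, beside 30.9% of all genes tested). The share over all genes was taken without that limit on CPM, so the shares are not matched for level. Their log2 fold changes lay between -0.36 and 0.38. Genes of the immediate early response, which also answers to the handling of cells, differed between the groups as well. Of 10 tested, 4 were higher and 2 lower (60% called, beside 30.9% of all genes tested). Atf3 was at 1.93, Junb at 0.74, Zfp36 at -0.60 and Dusp1 at -1.05. The 10 genes summed to 779 to 834 CPM with IL-3 supernatant and 545 to 580.2 CPM with PBS supernatant. Their part in the rise of Hspa1a, Hspa1b and Bag3 was not tested.

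The cytosol has an inducible and a constitutive HSP90 gene. Hsp90aa1, the inducible one, measured 2054, 2290 and 2147 CPM in IL-3 libraries, against 1805, 1840 and 1823 CPM in PBS libraries. It rose by 0.25 ± 0.05 on the log2 scale (edgeR adjusted p = 0.0014), with no overlap. Hsp90ab1, the constitutive one, measured 5054, 4930 and 5084 CPM with IL-3 supernatant, against 4684, 5002 and 4972 CPM with PBS supernatant. Its groups overlapped, at 0.04 ± 0.05 (edgeR adjusted p = 0.60). Hspa8, the constitutive HSP70, measured 4057, 3817 and 4047 CPM with IL-3 supernatant, against 4175, 4629 and 4501 CPM with PBS supernatant. It fell by 0.16 on the log2 scale (SE 0.05; edgeR adjusted p = 0.033), and that call was lost in 5 of the 6 fits that left out 1 library, at adjusted p = 0.0672, 0.186 and 0.0866 without IL-3 supernatant replicates 1, 2 and 3, and 0.196 and 0.117 without PBS supernatant replicates 2 and 3. Of the 50-base stretches of Hspa8 and Hsp90aa1 transcripts, 38.6% and 47.5% also occur in other genes. The gene copies that were counted held 0.0603% and 0.0486% of the combined counts. These shares come after reads were divided among the genes they fit, so they do not test that division.

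The HSP110 proteins exchange the nucleotide of HSP70 and help it to dissolve aggregates. Hsph1 measured 330.0, 333 and 344 CPM with IL-3 supernatant, against 285, 288 and 285 CPM with PBS supernatant, and rose by 0.23 ± 0.05 (edgeR adjusted p = 0.0014). Hspa4l averaged 59.9 ± 5.34 CPM with IL-3 supernatant and 51.1 ± 2.03 CPM with PBS supernatant (0.23 ± 0.08, edgeR adjusted p = 0.031). Its call was lost without IL-3 supernatant replicate 2 (adjusted p = 0.136), PBS supernatant replicate 2 (0.0879) or PBS supernatant replicate 3 (0.0584), and on TPM of 5 libraries its log2 difference was 0.05. Hspa4, the broadly expressed relative, averaged 579 ± 26.3 CPM with IL-3 supernatant and 563 ± 24.6 CPM with PBS supernatant (0.04 ± 0.05, with overlap). Among J-domain proteins that load clients onto cytosolic HSP70, the members Dnaja1 and Dnajb1 did not pass. Dnaja1 averaged 362 ± 22.1 CPM with IL-3 supernatant and 371 ± 9.59 CPM with PBS supernatant (-0.04 ± 0.06). Dnajb1, also a usual target of HSF1, averaged 62.8 ± 0.6785 CPM with IL-3 supernatant and 68.2 ± 3.92 CPM with PBS supernatant (-0.12 ± 0.07). Hsf1, the heat shock factor itself, averaged 39.7 ± 1.23 CPM with IL-3 supernatant and 45.1 ± 3.51 CPM with PBS supernatant (-0.18 ± 0.08, edgeR adjusted p = 0.10), and passed without PBS supernatant replicate 1 (0.0343). Hspb1, a small heat shock protein, fell below the filter of the main fit, with 6 counts over the IL-3 libraries and 6 over the PBS libraries.

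All 3 mitochondrial chaperones rose (100% called, beside 30.9% of all genes tested), with a median log2 fold change of 0.22. Hspa9, the HSP70 of the matrix (mortalin), which pulls proteins through the import pore, measured 1332, 1282 and 1344 CPM in IL-3 libraries, against 1014, 1026 and 1006 CPM in PBS libraries. Both groups were tight and far apart, and Hspa9 had the smallest p of the 37 tested members, with a log2 fold change of 0.38 ± 0.05 (edgeR adjusted p = 8.9e-06). Hspd1 (HSP60) and Hspe1 (HSP10) together form the folding chamber of the matrix. Hspe1 measured 294, 313 and 287 CPM with IL-3 supernatant, against 243.5, 264 and 259 CPM with PBS supernatant, and rose by 0.22 ± 0.06 (edgeR adjusted p = 0.0049). Hspd1 measured 1555, 1733 and 1706 CPM with IL-3 supernatant, against 1464, 1487 and 1472 CPM with PBS supernatant, and rose by 0.17 ± 0.05 (edgeR adjusted p = 0.017). Neither gene's groups overlapped. The call of Hspd1 was lost without IL-3 supernatant replicate 2 (edgeR adjusted p = 0.0554), IL-3 supernatant replicate 3 (0.0926) or PBS supernatant replicate 3 (0.0636). Of the 50-base stretches of Hspd1 and Hspe1 transcripts, 39.7% and 18.4% also occur in other genes, so the division of reads is uncertain here too.

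Hspd1 (chr1:55077835-55088243, minus strand) and Hspe1 (chr1:55088132-55091307, plus strand) lie head to head. Of the 2 RefSeq starts of Hspd1, the one at chr1:55087932 has a window of 250 bases before it that overlaps that of Hspe1, whereas the window before the start at chr1:55088243 does not overlap it and holds no heat shock element. The region before Hspe1 is shown because it holds the full heat shock element: capitals mark the alternating TTC and GAA units at chr1:55088059-55088076, which match the full element (GAA, TTC and GAA, each 2 bases apart) once on each strand. These are the 250 bases before the RefSeq start of Hspe1, chr1:55087898-55088147 of GRCm38.p6, plus strand.
Hspe1: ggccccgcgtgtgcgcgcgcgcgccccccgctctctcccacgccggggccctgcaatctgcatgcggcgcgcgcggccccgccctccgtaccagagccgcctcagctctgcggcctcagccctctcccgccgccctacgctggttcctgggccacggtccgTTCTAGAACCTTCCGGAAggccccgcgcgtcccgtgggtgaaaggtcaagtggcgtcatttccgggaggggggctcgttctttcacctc

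The ER was then set beside the other compartments. The 23 ER genes gave 8 higher, 3 lower and 11 not called of 22 tested (50% called, median log2 fold change 0.12). The 16 cytosolic and mitochondrial genes gave 9 higher, 1 lower and 5 not called of 15 tested (66.7% called, median 0.22). Of all genes tested, 30.9% were called. Leaving out 1 library changed the 11 called ER genes to 7 without IL-3 supernatant replicate 3 and to 6 without PBS supernatant replicate 3. The 10 called cytosolic and mitochondrial genes likewise became 7 without IL-3 supernatant replicate 2. The difference between the compartments was not tested. Among the members of the HSP70 family, the mitochondrial Hspa9 was at 0.38 ± 0.05 and the ER form Hspa5 at 0.27 ± 0.06. In the cytosol, the inducible Hspa1a and Hspa1b were at 1.85 ± 0.23 and 1.28 ± 0.18, both at low levels. The constitutive cytosolic Hspa8 was at -0.16 ± 0.05, a call lost in most fits that left out 1 library. The members of the HSP90 family include no mitochondrial form. Of these members, the inducible cytosolic Hsp90aa1 was at 0.25 ± 0.05, the ER form Hsp90b1 at 0.16 ± 0.05 and the constitutive cytosolic Hsp90ab1 at 0.04 ± 0.05. The 4 exchange factors of the HSP110 family were at 0.23 (Hsph1), 0.23 (Hspa4l), 0.15 (Hyou1, in the ER) and 0.04 (Hspa4, which was at -0.019 on TPM of 5 libraries). The 5 J-domain proteins among the members lay between -0.36 and -0.01, where 1 fell (Dnajc3) and 4 were not called, the signs of Dnajb9 and Dnaja1 changing with the processing. This range does not cover the J-domain genes of other lists, of which Dnajb4 rose.

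**Figure D3:**
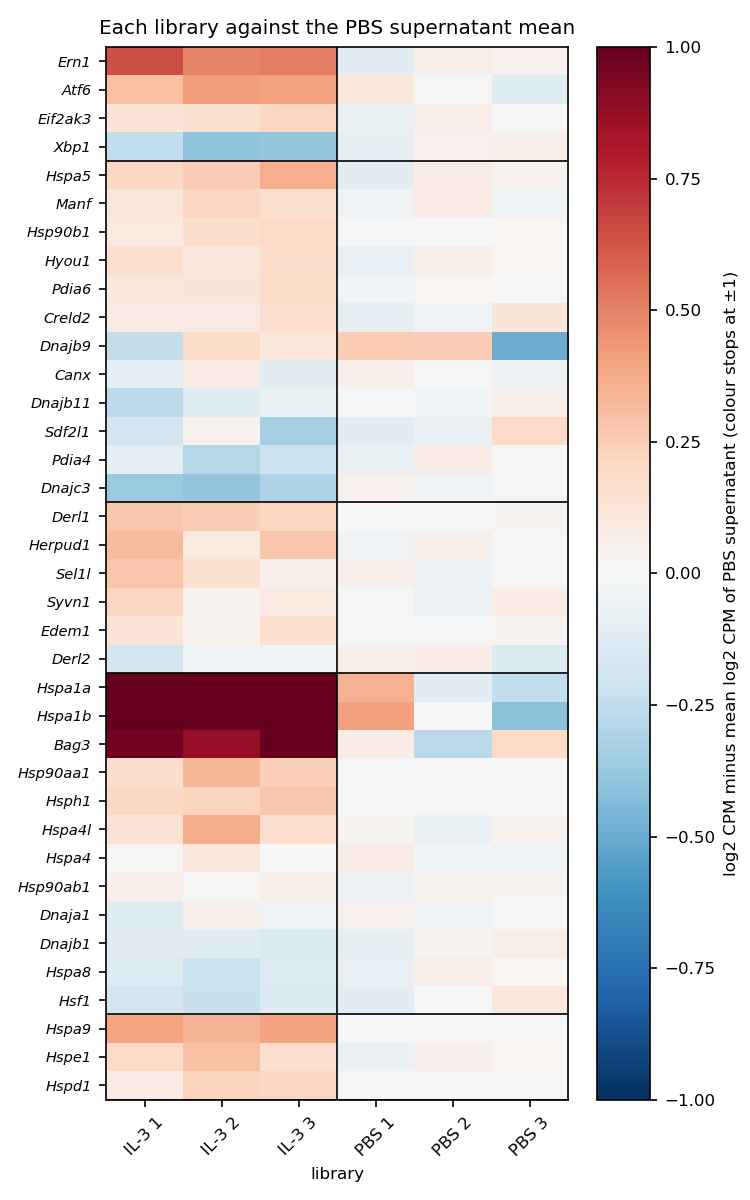
Log2 CPM of each tested member in each library minus the mean log2 CPM of the 3 PBS libraries, with IL-3 libraries on the left, PBS libraries on the right and colour held at ± 1. Rows of Hspa1a, Hspa1b and Bag3 are dark red in the 3 IL-3 libraries, Xbp1 and Dnajc3 are blue, and Dnajb9 is mixed in both groups.

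Summed TPM, which weigh each gene by its share of transcripts, give the share of chaperone message among all transcripts of a library. They do not give an amount per cell. The mitochondrial genes summed to 2861, 3022 and 3018 TPM in IL-3 libraries, against 2502, 2397 and 2499 TPM in PBS libraries, a ratio of 1.203 with no overlap. The ER chaperones and folding genes summed to 3227, 3414 and 3493 TPM with IL-3 supernatant, against 3152, 3012 and 3163 TPM with PBS supernatant, a ratio of 1.09, with no overlap. The degradation genes summed to 378 ± 19.4 TPM with IL-3 supernatant and 338 ± 8.03 TPM with PBS supernatant, a ratio of 1.12, again with no overlap. The cytosolic genes summed to 9425, 9392 and 9681 TPM with IL-3 supernatant, against 9329, 9197 and 9583 TPM with PBS supernatant, a ratio of 1.01 with overlap. In that class Hsp90ab1 and Hspa8 made up most of the sum. Hsp90ab1 averaged 3928 ± 84.2 TPM with IL-3 supernatant and 3754 ± 105 TPM with PBS supernatant, and Hspa8 3274 ± 127 TPM with IL-3 supernatant and 3589 ± 104 TPM with PBS supernatant. The genes with the largest fold changes gave few transcripts: Hspa1a averaged 6.05 ± 1.69 TPM with IL-3 supernatant and 1.64 ± 0.413 TPM with PBS supernatant, and Hspa1b 9.99 ± 1.42 TPM with IL-3 supernatant and 4.03 ± 1.21 TPM with PBS supernatant. All 39 genes took 1.64% of TPM with IL-3 supernatant and 1.55% with PBS supernatant.

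**Figure D4:**
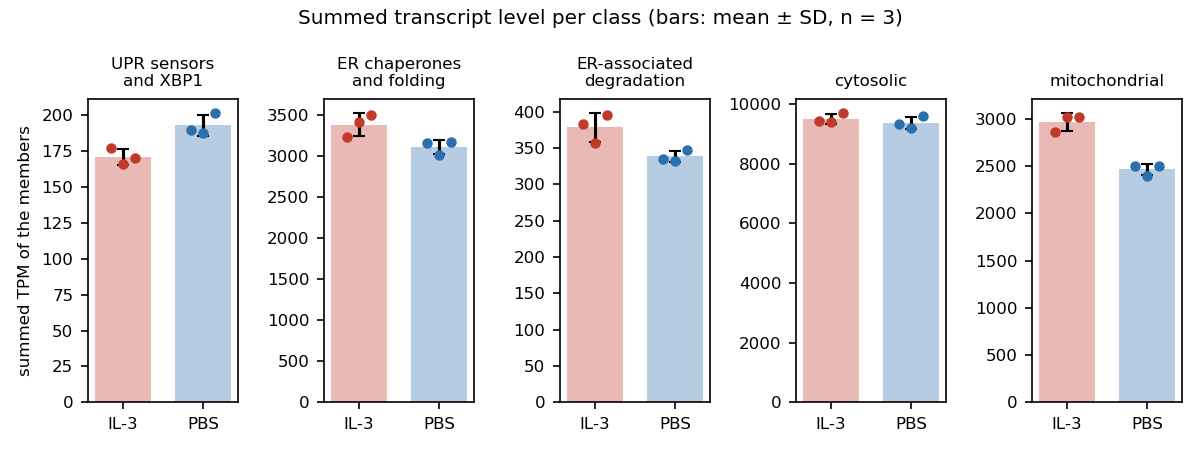
Summed TPM of the members of each class in each library (points) with the mean ± SD (bars, n = 3), IL-3 supernatant left of PBS supernatant, each panel with its own axis from 0. The mitochondrial bars are the furthest apart in ratio (2967 against 2466 TPM), and the cytosolic points of the groups overlap.

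Other genes of these pathways were counted from lists that hold no member. Of 15 regulators and PERK outputs, 15 were tested, 7 rose and 3 fell (66.7% called, beside 30.9% of all genes tested). Their median log2 fold change was 0.11. Atf4, the transcription factor whose translation PERK favours, averaged 576 ± 24.0 CPM with IL-3 supernatant and 417 ± 21.1 CPM with PBS supernatant (log2 0.47 ± 0.06, edgeR adjusted p = 4.8e-06), and its targets Trib3 (0.82 ± 0.10) and Chac1 (1.10 ± 0.16) rose as well. Creb3l2, a membrane-bound relative of ATF6, rose by 1.67 ± 0.12 (edgeR adjusted p = 1.2e-08), to 27.1 ± 1.77 CPM with IL-3 supernatant, against 8.53 ± 1.253 CPM with PBS supernatant. Ddit3, which encodes CHOP and was named after its values were seen, was at 0.82 ± 0.12. The 3 that fell, also named after their values were seen, were Eif2ak2 (-0.36), Eif2ak1 (-0.20) and Mbtps1 (-0.17). ATF4 also serves other stress kinases, and its targets are not particular to the ER.

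Of 21 further ER folding genes, 20 were tested, 4 rose and 1 fell (median log2 fold change 0.007). Fkbp11, a prolyl isomerase of secretory cells, was at 1.87 ± 0.28, Ero1l, the oxidase that recharges disulfide isomerases, at 0.68 ± 0.09, and Pdia5 at 0.87 ± 0.24, while Pdia3, the isomerase that works with calnexin, fell by 0.33. Fkbp11 and Pdia5 were low, at 5.33 and 4.30 CPM with IL-3 supernatant and 1.45 and 2.35 CPM with PBS supernatant. Of 22 further genes for ER degradation and translocation, 22 were tested, 2 rose and 3 fell (median 0.05), with Sec61a1, the translocation channel, at -0.26 ± 0.05, Os9, a lectin of the degradation pathway, at -0.27 ± 0.06, Ube2j1, a ubiquitin-conjugating enzyme, at -0.25 ± 0.06, and Ubxn4 at 0.20 ± 0.06. The shares called, 25% and 22.7%, lie below the 30.9% of all genes tested.

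In the cytosol, 5 of 21 tested co-chaperones rose, of 25 on the list (23.8% called, beside 30.9% of all genes tested, median log2 fold change 0.08). Among them were Fkbp4, an HSP90 partner (0.20 ± 0.05), Hsf2, a second heat shock factor (0.44 ± 0.11), Dnajb4, a J-domain protein (0.52 ± 0.16), and Hspa2, an HSP70 (0.83 ± 0.29). Hspa2 was low, at 3.07 CPM with IL-3 supernatant and 1.72 CPM with PBS supernatant. Of the 14 genes of the CCT chaperonin, which folds actin and tubulin, and of its partner prefoldin, 6 rose (42.9% called, median 0.14 over the 14), by at most 0.24 (Tcp1), with Cct6a, Cct2 and Cct4 at 0.17, 0.18 and 0.17. Of 13 further mitochondrial chaperones and proteases 5 rose (38.5% called, median 0.14 over the 13): the matrix protease Lonp1 averaged 297 ± 17.4 CPM with IL-3 supernatant and 206 ± 9.92 CPM with PBS supernatant (0.53 ± 0.06, edgeR adjusted p = 2.2e-06), Clpx, the unfoldase of another matrix protease, was at 0.36 ± 0.07, Htra2, a protease of the intermembrane space, at 0.36 ± 0.08, and Atf5, a transcription factor of the mitochondrial stress response, at 0.95 ± 0.14. The other 16 co-chaperones, 8 CCT and prefoldin genes and 8 mitochondrial genes tested were not called.

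The response elements printed above were searched in the RefSeq promoter windows of 250 bases before to 50 after a start site, which were at hand for 30 of the 39 members (36 windows). The ERSE occurred in 8 members (Canx, Creld2, Derl3, Dnajc3, Hsp90b1, Hspa5, Pdia6 and Syvn1) and in 0.137% of 27025 genes. Of the 7 of these that were tested, 2 rose, 1 fell and 4 were not called, with log2 fold changes from -0.36 to 0.27. The short form occurred in Dnajb11 and Herpud1, at -0.15 and 0.23, and in 0.0444% of genes. The full heat shock element occurred in Hspd1 (before 1 of its 2 starts), Hspe1 and Hsph1 and in 0.662% of genes, and these 3 rose by 0.17, 0.22 and 0.23. Its first pair, GAANNTTC, which the full element contains, occurred in 8 members and in 9.04% of genes: Hspa1a, Hspa1b, Bag3, Hsph1, Hspd1 and Hspe1 rose, Dnaja1 was not called and Hspb1 was not tested. The other pair, TTCNNGAA, also part of the full element, occurred in 4 members (Eif2ak3, Hspd1, Hspe1 and Hsph1) and in 9.60% of genes. TGATGNAA occurred in Herpud1 and in 4.51% of genes, and TGACGTGG, the core of the unfolded protein response element of XBP1 and ATF6, in no member window and in 0.714% of genes. All motifs were searched on both strands, and a match describes letters only.

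**Figure D5:**
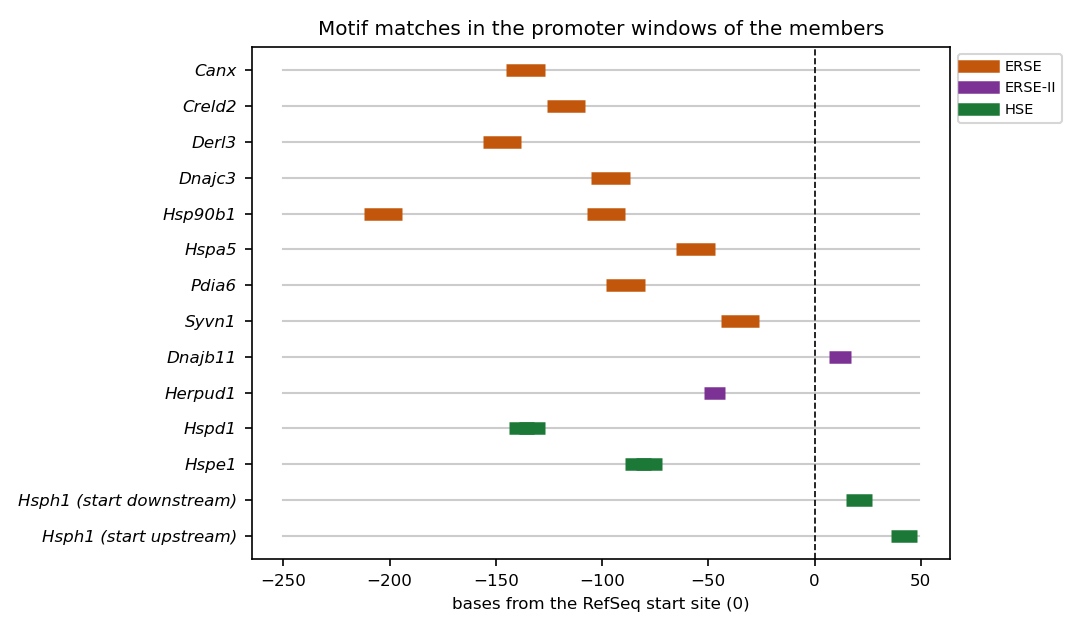
Matches of the ERSE, its short form (ERSE-II) and the full heat shock element (HSE) in the promoter windows of the members, by distance in bases from the RefSeq start site (dashed line at 0). In Hspa5 the ERSE ends 47 bases before the start, Hsp90b1 has 2 matches, and the elements of Hsph1 lie after both of its annotated starts.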

How the data were processed

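RNA of 6 libraries of mouse CD8 T cells, 3 per group, was sequenced after poly(A) capture with an Illumina TruSeq kit, per the labels' protocols. Per the submitters' processing notes, RSEM 1.2.12, Bowtie2 2.2.0 and edgeR 3.20.9 were used with GRCm38; the sources used here give neither their roles nor the annotation or strand setting, so overlapping and antisense genes cannot be told apart. The authors deposited expected counts per gene, which divide a read among the genes it fits, and TPM, scaled for transcript length and depth. TPM came by gene for 5 libraries; for PBS supernatant replicate 2 they came by isoform and were summed (99.7% of TPM matched a gene).

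Symbols were matched for 46005 of 46517 identifiers. Members were 39 genes, all found; coordinates are those of GENCODE M21. Expected counts were rounded and fitted with edgeR 4.0.16 in R 4.3.3 (filterByExpr, TMM, robust dispersions, quasi-likelihood F test, 1 term for group, Benjamini-Hochberg threshold 0.05 over all 12407 genes tested). Fold changes are IL-3 over PBS supernatant on the log2 scale, and SEs come from the F statistic. A count of 0 allows up to 3 counts, 0.135 to 0.173 CPM per library. Libraries of the same group differed by more than sampling noise, and all 6 were counted. Whether replicate numbers pair the libraries is not stated, and the main fit left them unpaired. The fit was tested on simulated data with known changes.

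The text names all 39 members, up to 4 genes with the smallest p of each other list and marker or handling genes. Ddit3, Eif2ak2, Eif2ak1 and Mbtps1 were added after their values were seen. Members and lists were chosen with earlier results of these data known, so their counts are descriptions. Alternatives were DESeq2 1.42.0, its size factors, library size only, other filters, limma 3.58.1 (voom, and log2 TPM with pseudocounts of 1 and 0.1), a replicate block, an adjusted p below 0.01, each library left out, and Hspa1a and Hspa1b summed; chosen after seeing the data were TPM of 6 libraries, a fit without CT010467.1, and summed gene copies. One marker gene and the sum of its list are not reported here. Promoters are RefSeq windows (GRCm38.p6). Python 3.11.15, pandas 2.3.3 and matplotlib 3.10.9 were used.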

Additional observations from a re-analysis of the deposited data

How the results depend on the processing

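Under the 19 alternatives, 5 of the 21 called members kept their call throughout (Dnajc3, Derl1, Hsph1, Bag3 and Hspa9), and 16 lost it in at least 1. Of the 16 members tested and not called in the main fit, 5 passed in at least 1. Derl3, which the main fit did not test, was called lower with no filter. Against 21 members (17 higher, 4 lower, 11 in the ER, 10 cytosolic or mitochondrial) and 3835 genes, limma on log2(TPM + 1) of 5 libraries called 11 members (9, 2, 4 and 7) and 2537 genes, with a pseudocount of 0.1 it called 11 (9, 2, 4 and 7) and 2504 genes, and with no filter 5 (4, 1, 2 and 3) and 1489 genes; fewer libraries enter these fits. TPM of 6 libraries called 16 members, 2 of them lower. An adjusted p below 0.01 left 13 members (11 higher, 2 lower, 6 in the ER). With the replicate block, 14 members (12 higher, 2 lower, 7 in the ER) and 3410 genes were called. The labels do not say whether libraries of the same number were paired. The correlations of same-numbered deviations were -0.148, 0.0517 and 0.255, and those of other numbers ran from -0.284 to 0.256. With 3 libraries per group, these correlations cannot decide whether the numbers pair the libraries. Leaving out 1 library gave 13 to 23 members, 11 to 17 higher, 2 to 6 lower, 6 to 12 in the ER and 7 to 11 cytosolic or mitochondrial. The sign of Dnajb9 reversed to 0.013 with library size only, 0.006 with the replicate block, 0.019 with voom, 0.112, 0.133 and 0.112 on TPM of 5 libraries, 0.033 on TPM of 6 libraries, and 0.104, 0.106 and 0.115 without IL-3 supernatant replicate 1, PBS supernatant replicate 1 or PBS supernatant replicate 2 (range over the 6 fits with 1 library left out -0.22 to 0.115). Hspa4 reversed to -0.019 in the 3 fits on TPM of 5 libraries and Dnaja1 to 0.008 without IL-3 supernatant replicate 1 (range -0.068 to 0.008). The cause of these changes was not tested. Depth limits Derl3 and Hspb1, which fell below the filter, and Hspa1a, Hspa1b, Bag3, Ern1 and Dnajb9, whose levels were lowest among those tested.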
